A study of Mus musculus with 29 samples.

Results

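The 50 genes described here encode the machinery of mitosis, from the kinases that start it to the proteins that pull chromosomes apart and separate the daughter cells. They were chosen as a list of symbols with earlier results of these data known, so counts of them are not an independent result. All 50 were found among the 54532 genes of the cell-type table and among the 55421 genes of the Smad table. All 50 passed the filter on low values in both tables. Mitosis begins when cyclin-dependent kinase 1 with its cyclins is switched on, together with the Polo and Aurora kinases. Kinetochores then couple chromosomes to spindle microtubules under a checkpoint that holds back anaphase, after which motors and a contractile ring complete cytokinesis. In the T cell lineage most genes of this kind are known to be low in resting naive cells and to rise together when stimulated cells divide.

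The question behind the study is lipid synthesis in regulatory T cells (Treg) and the role there of Smad2 and Smad3, which carry the TGF-beta signal to the nucleus. CD4 T cells from spleens of C57BL/6 mice were profiled by 3' tag sequencing, in which each transcript yields reads near its polyadenylated end. Cell types were compared in 9 libraries, 3 each of Treg cultures (IL-2, 15 ng/ml, plus human TGF-beta, called hTGFb, 10 ng/ml, for 5 days), of Th0 cultures (the same IL-2 alone for 5 days) and of uncultured naive CD4 T cells. A further 8 libraries, 2 a group, came from Treg cultures labelled sgSmad2, sgSmad3 and sgSmad2/3 and from control Treg cultures whose labels name no guide RNA, all kept in IL-2 and hTGFb for 5 days. The labels give no age or sex, no stimulus of the T cell receptor, no source of the Cas9 nuclease, and no sorting of cultured or edited cells, so a culture may hold cells that did not respond or were not edited. Whether replicates are separate mice or separate wells is not stated either. Every p therefore reflects library-to-library spread only, and part of that may be technical.

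Levels are in CPM, reads per 1000000 counted reads, and values for libraries are listed in the order of their replicate numbers. Depth was 797612 to 1551478 reads in the cell-type libraries and 1294583 to 1602297 in the Smad libraries, where the deposited values were rounded to whole CPM. Foxp3, the factor that defines Treg cells, had 138, 191 and 207 CPM in Treg cultures, 13.8, 8.88 and 8.57 in Th0 cultures and 82.7, 91.7 and 88.8 in naive cells. Summed over 7 CD4 T cell markers, levels were 2319 to 2633 CPM in Treg cultures, 2501 to 2718 in Th0 cultures and 3488 to 3609 in naive cells. The 4 globins summed to 0 to 4.51 CPM in Treg cultures, 4.90 to 5.55 in Th0 cultures and 493 to 1163 in naive cells. Of the other red cell precursor markers listed, Tfrc went the other way. It had 416, 401 and 416 CPM in Treg cultures, 495, 519 and 492 in Th0 cultures and 30.1, 54.5 and 32.7 in naive cells. In 7 CD8, NK and gamma-delta markers, sums were 45.1 to 78.6 CPM in Treg and 24.5 to 55.1 in Th0 cultures. In naive cells they were 69.0 to 85.3 CPM, which overlaps the Treg range. For 8 myeloid markers the sum was 1.29 to 3.23 CPM in Treg cultures, 0 to 2.12 in Th0 cultures and 17.5 to 91.7 in naive cells, with Lyz2, Csf1r, Cd14, S100a8 and S100a9 at 0 in all 6 cultures. Without Ighm, 6 B cell markers summed to 0 to 4.31 CPM in Treg cultures, 2.12 to 7.77 in Th0 cultures and 14.03 to 130 in naive cells. Ighm alone had 109, 98.0 and 109 CPM in Treg cultures, 96.4, 103 and 109 in Th0 cultures and 320, 254 and 189 in naive cells.

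Promoters of these genes are shown first because late cell cycle genes are known for a shared promoter design. It joins a cell cycle genes homology region (CHR), bound by the DREAM complex in resting cells and by the MuvB core with B-Myb or FoxM1 in dividing cells, to CCAAT boxes, which bind the factor NF-Y. The RefSeq promoter table for GRCm38.p6, with windows of 250 bases before to 50 after a transcription start, held 42 of the 50 genes in 45 windows. Foxm1, Kif20a, Smc4, Incenp, Ccna2, Aurkb, Spc24 and Tpx2 were not matched. The 5 windows below are those of Ttk and Cdk1, whose rises in culture were among the 8 largest, Ccnb2, with 3 CCAAT boxes upstream of its CHR, Plk1, which had the highest estimate with the Smad3 guide, and Bub3, whose rise was the smallest among genes with a window. Capitals mark a CHR, searched as TTTGAA or as TTCGAA, and a CCAAT box. Each was searched on both strands, so a match on the opposite strand is printed as its reverse complement. All are written 5' to 3' on the strand of the gene: Ttk at chr9:83834439-83834738 (plus), Cdk1 at chr10:69352863-69353162 (minus), Ccnb2 at chr9:70421505-70421804 (minus), Plk1 at chr7:122159185-122159484 (plus) and Bub3 at chr7:131560120-131560419 (plus).
Ttk: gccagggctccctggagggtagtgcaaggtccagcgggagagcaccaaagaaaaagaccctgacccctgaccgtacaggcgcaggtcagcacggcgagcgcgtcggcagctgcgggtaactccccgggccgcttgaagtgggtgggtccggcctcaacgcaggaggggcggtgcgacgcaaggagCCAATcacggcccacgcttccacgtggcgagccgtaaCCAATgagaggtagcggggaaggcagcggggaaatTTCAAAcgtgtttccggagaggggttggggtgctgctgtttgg
Cdk1: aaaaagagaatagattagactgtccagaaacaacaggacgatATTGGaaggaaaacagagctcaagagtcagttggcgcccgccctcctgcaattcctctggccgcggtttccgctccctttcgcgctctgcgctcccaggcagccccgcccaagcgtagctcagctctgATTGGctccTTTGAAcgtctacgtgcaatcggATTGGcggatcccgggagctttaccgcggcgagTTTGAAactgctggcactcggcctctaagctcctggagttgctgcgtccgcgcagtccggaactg
Ccnb2: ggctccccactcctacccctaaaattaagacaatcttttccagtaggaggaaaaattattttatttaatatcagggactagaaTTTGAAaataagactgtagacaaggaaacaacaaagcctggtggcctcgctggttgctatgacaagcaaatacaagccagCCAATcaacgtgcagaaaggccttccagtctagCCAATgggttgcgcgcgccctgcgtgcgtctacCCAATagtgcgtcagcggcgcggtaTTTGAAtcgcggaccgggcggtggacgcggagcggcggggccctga
Plk1: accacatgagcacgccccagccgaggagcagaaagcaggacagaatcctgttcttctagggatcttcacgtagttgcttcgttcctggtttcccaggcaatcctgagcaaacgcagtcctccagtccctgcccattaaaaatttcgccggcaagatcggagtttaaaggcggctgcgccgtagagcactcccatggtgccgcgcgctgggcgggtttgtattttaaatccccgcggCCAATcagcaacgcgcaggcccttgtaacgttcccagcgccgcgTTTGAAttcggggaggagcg
Bub3: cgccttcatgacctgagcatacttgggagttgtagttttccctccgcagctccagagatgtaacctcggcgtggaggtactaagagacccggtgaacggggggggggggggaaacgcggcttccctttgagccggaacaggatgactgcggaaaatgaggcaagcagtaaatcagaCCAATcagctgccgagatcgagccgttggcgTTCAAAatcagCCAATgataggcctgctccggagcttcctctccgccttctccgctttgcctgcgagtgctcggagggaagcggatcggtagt
Counted from the start, the CHR of Ttk began at 7 and its CCAAT boxes at -65 and -28. Cdk1 had a CHR at -71 and another at -15, with CCAAT boxes at -208, -80 and -48. In Ccnb2 the CCAAT boxes lay at -87, -54 and -21 before a CHR at 4, and a further CHR match lay at -167. Plk1 had 1 CCAAT box at -14 and a CHR at 30, and Bub3 had CCAAT boxes at -74 and -32 around a CHR at -43.

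The CHR occurred in 36 of the 45 windows (80.0%), against 19.2% of all 32851 windows in the table. A CCAAT box was present in 75.6% of the members' windows and in 37.4% of all windows, and both together in 68.9% and 7.52%. At or after 50 bases before the start, 71.1% of the members' windows and 5.31% of all windows held a CHR. Among 139 other mitosis and cell cycle control genes listed for comparison, 111 were matched and 37.4% of their windows held a CHR. In 1 of the members' windows a CHR shared bases with a CCAAT box. These matches are descriptions of letters in a window and not evidence of binding. Birc5, Ccnb1, Cenpe, Cks2, Mad2l1, Ncaph, Nuf2, Nusap1 and Pttg1 had no match to these CHR letters. Their median log2 change in Treg cultures against naive cells was 4.15 (range 2.86 to 5.43). For the 33 genes with a match it was 4.67 (range 1.10 to 5.64). The ranges overlap widely, genes without a window are in neither set, and the difference was not tested.

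**Figure D1:**
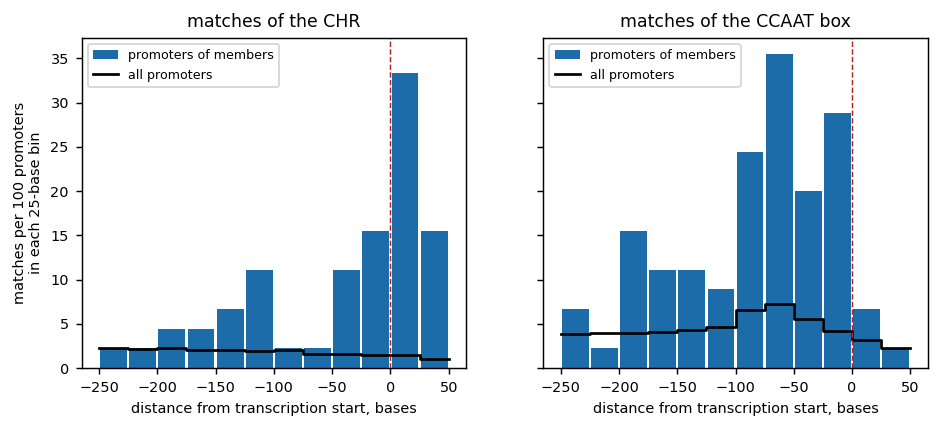
Matches of the CHR (left) and the CCAAT box (right) per 100 promoter windows in bins of 25 bases, by distance from the transcription start; bars are the members' 45 windows and the black line all 32851 windows in the table. The bars for the CHR are tallest in the bins next to the start, and those for the CCAAT box between 100 bases before the start and the start itself.

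In both 5-day cultures the mitotic genes stood far above naive cells, in every role and with few exceptions in size. Of the 50 genes, 50 rose in Treg cultures against naive cells and 0 fell (limma adjusted p under 0.05), where 23.3% of all 14165 genes tested rose. In Th0 cultures 49 of 50 rose against naive cells and 0 fell, where 24.3% of all genes rose. These counts include Ccnb1, Cks2, Aurkb, Bub1, Nuf2, Espl1, Kif22, Kif2c and Anln, each at 0 in at least 1 naive library. Those genes passed the filter of 1 CPM in 3 libraries only through the cultures, where they are high. In both comparisons the culture and naive libraries did not overlap for any of the 50 genes, all of which were higher in culture, where 27.0% of all genes in Treg and 26.7% in Th0 cultures lay wholly above naive cells and 21.1% and 21.8% wholly below. The median log2 change was 4.56 in each comparison, a 23.5-fold rise in Treg and a 23.6-fold rise in Th0 cultures, while the median of all genes was 0.08 in both. These comparisons share the naive libraries and are given side by side. In bulk RNA, fewer dividing cells and less of these RNAs per cell cannot be told apart. The naive libraries also held the globin, myeloid and B cell RNA given above, whose part in the result was not tested. Changes are on the log2(CPM + 1) scale, which understates the rise of genes with few reads in naive cells. RefSeq places another gene over Ccna2 (Exosc9), Ect2, Anln, Aurka, Cdc20, Foxm1, Kif20a, Kif4, Ncapg, Ncaph, Nusap1 and Prc1, and with no strand setting known their reads may include that neighbour's.

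Summed over the 50 genes, the level was 14671, 15221 and 15537 CPM in Treg cultures, 15404, 15158 and 15130 CPM in Th0 cultures and 2015, 1938 and 1824 CPM in naive cells. Mitotic transcripts thus made up a mean of 1.51% of reads in Treg cultures, 1.52% in Th0 cultures and 0.193% in naive cells. A single gene, Smc4, held 8.81% to 9.47% of that sum in Treg cultures and 8.53% to 9.23% in Th0 cultures, but 61.0% to 64.8% in naive cells. Without Smc4 and Top2a the sum was 9997 to 10595 CPM in Treg cultures, 10363 to 10721 in Th0 cultures and 583 to 688 in naive cells. For 11 of the 50 genes each naive library held at most 3 reads, the number that a count of 0 allows.

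**Figure D2:**
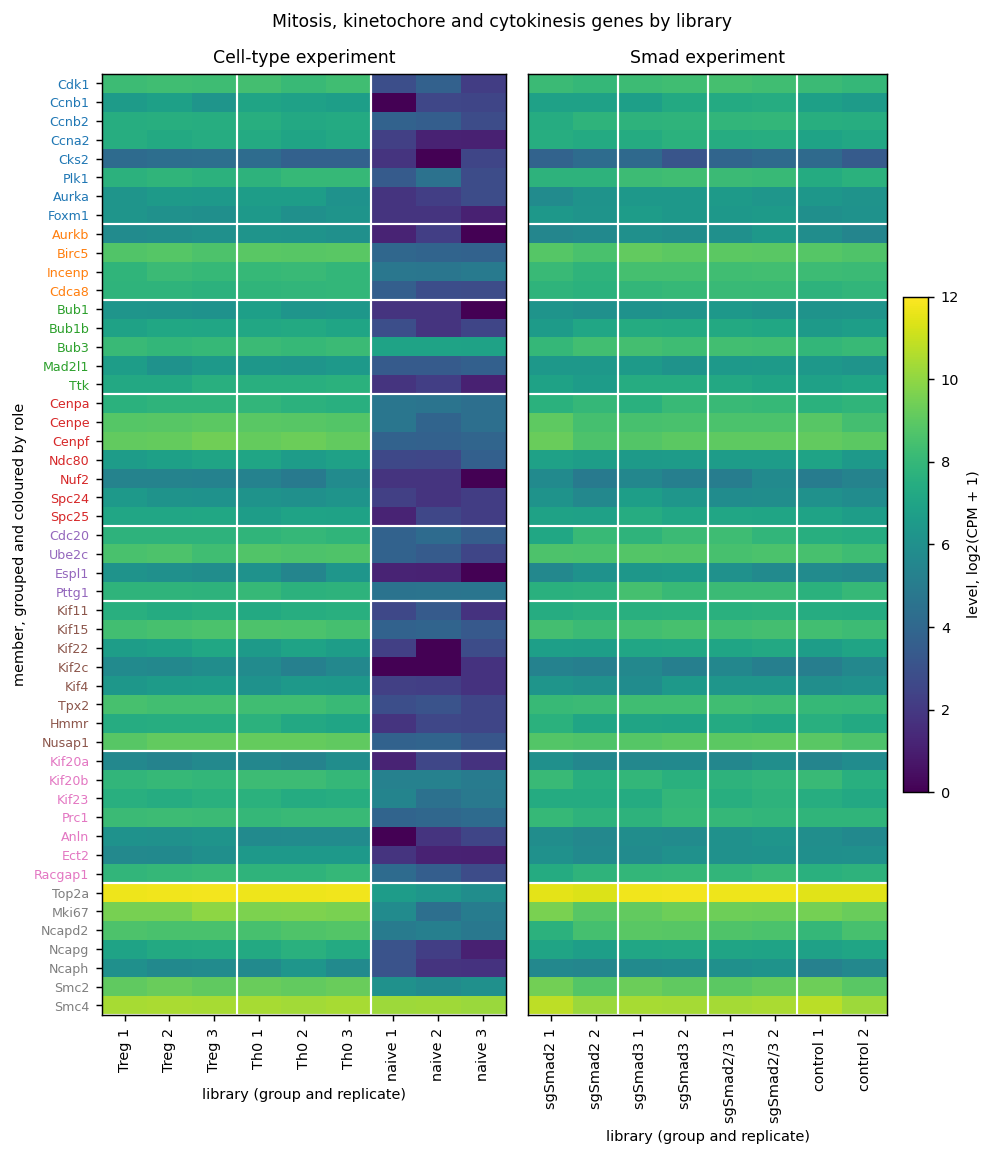
Level of each of the 50 genes, as log2(CPM + 1), in the 9 libraries of the cell-type experiment (left) and the 8 of the Smad experiment (right); rows are grouped and coloured by role and white lines part groups. Naive columns are darker than the Treg and Th0 columns, with the smallest step in the row of Smc4 and the next in that of Bub3.

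The 8 genes of mitotic entry all rose in both cultures, with a median log2 change of 4.36 in Treg cultures against naive cells. Ccna2, which encodes cyclin A2, had 176, 155 and 171 CPM in Treg cultures, 161, 129 and 148 in Th0 cultures and 3.76, 1.24 and 1.17 in naive cells. Its log2 change was the largest of the 50 in Treg cultures against naive cells (5.88, SE 0.25, limma adjusted p = 5.4e-13), and 5.68 in Th0 cultures. Cdk1, the catalytic kinase of mitotic entry, had 300, 315 and 312 CPM in Treg cultures, 342, 284 and 323 in Th0 cultures and 6.27, 12.4 and 3.51 in naive cells. Every culture library was thus far above every naive library for both genes. Cks2, a small subunit that binds cyclin-dependent kinases, changed least of the 8, with 17.2, 19.3 and 19.6 CPM in Treg cultures, 18.0, 12.2 and 12.2 in Th0 cultures and 2.51, 0 and 4.68 in naive cells. Its log2 change was 2.86 in Treg (SE 0.51, limma adjusted p = 0.00015) and 2.46 in Th0 cultures (limma adjusted p = 0.00064). Of the others, Ccnb1 and Ccnb2 encode the B-type cyclins, Plk1 and Aurka the Polo-like and Aurora A kinases, and Foxm1 a transcription factor of late cell cycle genes. Their log2 changes lay between 4.11 (Ccnb2) and 4.86 (Ccnb1) in Treg cultures.

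The chromosomal passenger complex, which corrects faulty attachments and guides cytokinesis, was measured through all 4 of its core subunits. Birc5, which encodes survivin, had 424, 458 and 396 CPM in Treg cultures, 479, 478 and 488 in Th0 cultures and 15.0, 13.6 and 12.9 in naive cells. That is a log2 change of 4.85 in Treg (SE 0.11, limma adjusted p = 6.0e-17) and 5.03 in Th0 cultures. Aurkb, the kinase of the complex, had 53.8, 58.7 and 63.7 CPM in Treg cultures, 74.2, 71.0 and 63.7 in Th0 cultures and 1.25, 3.72 and 0 in naive cells. Both were near the floor or low in all 3 naive libraries and well above it in all 6 cultures. Incenp, the scaffold of the complex, had 227, 287 and 263 CPM in Treg cultures, 261, 283 and 246 in Th0 cultures and 26.3, 24.8 and 29.2 in naive cells, where it was already clearly detected. Its log2 change was 3.23 in Treg cultures (SE 0.12, limma adjusted p = 1.6e-13), below the 4.70 of Cdca8, which encodes borealin.

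The 5 genes of the spindle checkpoint ranged more widely. Ttk, which encodes the checkpoint kinase Mps1, had 152, 151 and 188 CPM in Treg cultures, 190, 191 and 203 in Th0 cultures and 2.51, 3.72 and 1.17 in naive cells. It had the largest log2 change of the 50 in Th0 cultures against naive cells (5.89, SE 0.23, limma adjusted p = 1.3e-13), and 5.64 in Treg cultures. By its reads, 568 over the Treg and 6 over the naive libraries, Ttk was 66.5-fold higher in Treg cultures (95% counting interval 30.4 to 182). Bub1, a checkpoint kinase of the kinetochore, had 75.4, 73.5 and 68.6 CPM in Treg cultures, 107, 75.5 and 79.6 in Th0 cultures and 2.51, 2.48 and 0 in naive cells. Bub3, a binding partner of both Bub kinases, behaved differently in size. It had 278, 244 and 264 CPM in Treg cultures, 287, 264 and 289 in Th0 cultures and already 122, 125 and 118 in naive cells. The groups of cultures and naive cells did not overlap, and Bub3 rose 2.14-fold in Treg cultures (1.10 on the log2 scale, SE 0.10, by limma adjusted p = 2.6e-08) and 2.29-fold in Th0 cultures. Bub1b and Mad2l1, which encode BubR1 and Mad2, had log2 changes of 4.67 and 2.88 in Treg cultures.

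Kinetochore genes, 7 in all, had a median log2 change of 4.17 in Treg cultures against naive cells. Cenpf, a large protein of the outer kinetochore, had 558, 567 and 665 CPM in Treg cultures, 574, 637 and 549 in Th0 cultures and 12.5, 12.4 and 14.03 in naive cells. Its log2 change of 5.41 in Treg cultures (SE 0.11) had the lowest p of the 50 genes (limma adjusted p = 4.4e-17). Spc25, a subunit of the Ndc80 complex that holds microtubules, had 135, 137 and 141 CPM in Treg cultures, 103, 124 and 121 in Th0 cultures and 1.25, 4.96 and 3.51 in naive cells. For both genes every culture library lay far above every naive library. Cenpa, the histone H3 variant that marks centromeres, changed least of the 7, with 205, 220 and 225 CPM in Treg cultures, 235, 211 and 187 in Th0 cultures and 25.1, 23.5 and 19.9 in naive cells. Its log2 change was 3.20 in Treg and 3.15 in Th0 cultures (SE 0.13 each, limma adjusted p = 4.2e-13 and 4.7e-13). The other subunits of the Ndc80 complex, Ndc80, Nuf2 and Spc24, had log2 changes of 3.86, 4.15 and 4.17 in Treg cultures, and Cenpe, a kinesin that aligns chromosomes, 4.57.

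Anaphase onset depends on destruction of securin and on separase, and the 4 genes for it rose in both cultures. Ube2c, the ubiquitin-conjugating enzyme of the anaphase-promoting complex, had 380, 406 and 318 CPM in Treg cultures, 422, 402 and 410 in Th0 cultures and 12.5, 9.91 and 4.68 in naive cells. Espl1, which encodes separase, had 71.1, 63.8 and 58.8 CPM in Treg cultures, 67.8, 43.3 and 77.2 in Th0 cultures and 1.25, 1.24 and 0 in naive cells. The naive value of Espl1 rests on 2 reads, and by reads it was 79.1-fold higher in Treg cultures with a 95% counting interval of 21.6 to 657. Pttg1, which encodes securin, had 222, 221 and 217 CPM in Treg cultures, 259, 209 and 214 in Th0 cultures and 22.6, 23.5 and 24.5 in naive cells. No culture library overlapped a naive library, and its log2 change, the smallest of the 4, was 3.17 in Treg and 3.21 in Th0 cultures (SE 0.12 each, limma adjusted p = 1.8e-13 and 1.3e-13). Cdc20, an activator of the same complex, had a log2 change of 3.93 in Treg and 4.07 in Th0 cultures.

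The 8 genes for spindle assembly and motors had the highest median of the roles, a log2 change of 5.17 in Treg cultures against naive cells. Tpx2, which activates Aurora A on the spindle, had 360, 325 and 326 CPM in Treg cultures, 317, 321 and 283 in Th0 cultures and 6.27, 7.43 and 4.68 in naive cells. Its log2 change was 5.59 in Treg (SE 0.15, limma adjusted p = 7.1e-16) and 5.45 in Th0 cultures. Nusap1, which bundles spindle microtubules, had 471, 554 and 552 CPM in Treg cultures, 575, 568 and 539 in Th0 cultures and 12.5, 13.6 and 8.18 in naive cells. Kif4, a kinesin that binds chromosomes, had the smallest change of the 8, and its naive libraries were still all below 4 CPM. It had 81.8, 94.1 and 98.0 CPM in Treg cultures, 67.8, 88.8 and 84.5 in Th0 cultures and 3.76, 3.72 and 2.34 in naive cells, a log2 change of 4.45 in Treg cultures (SE 0.22, limma adjusted p = 5.6e-12). Kif2c, a kinesin that takes microtubules apart at the kinetochore, was listed at 0 in naive replicates 1 and 2 and rested on 2 reads in the third. By reads Kif2c was 64.3-fold higher in Treg cultures (95% counting interval 17.5 to 535).

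Among 7 genes of the spindle midzone and cytokinesis, the median log2 change was 4.18 in Treg cultures. Anln, which encodes the ring protein anillin, had 68.9, 65.7 and 73.5 CPM in Treg cultures, 51.9, 54.4 and 55.1 in Th0 cultures and 0, 2.48 and 4.68 in naive cells. Racgap1, part of centralspindlin at the midzone, had 239, 253 and 273 CPM in Treg cultures, 221, 225 and 254 in Th0 cultures and 17.6, 11.2 and 5.84 in naive cells. For both, each culture library exceeded each naive library more than 10-fold. Kif23, the kinesin partner of Racgap1 in centralspindlin, changed least of the 7. It had 190, 172 and 193 CPM in Treg cultures, 200, 166 and 176 in Th0 cultures and 41.4, 21.1 and 28.1 in naive cells, a log2 change of 2.63 (SE 0.18, limma adjusted p = 5.1e-10) and 2.59.

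The 7 genes of chromosome structure held both the most abundant of the 50 and the one that hardly moved. Top2a, the topoisomerase that untangles sister chromatids (chromosome 11, 98992947 to 99024199), had 3302, 3459 and 3574 CPM in Treg cultures, 3300, 3308 and 3371 in Th0 cultures and 97.8, 79.3 and 58.4 in naive cells. With no overlap between cultures and naive cells, its rise was 44.3-fold in Treg cultures (5.47 on the log2 scale, SE 0.12, by limma adjusted p = 6.0e-17) and 42.7-fold in Th0 cultures. Ncapg, a condensin subunit, had 125, 156 and 159 CPM in Treg cultures, 155, 195 and 162 in Th0 cultures and 7.52, 3.72 and 1.17 in naive cells. Smc4, the core ATPase of condensin (ENSMUSG00000034349, chromosome 3, 69004738 to 69034623), stood apart from the other subunits. It had 1372, 1442 and 1368 CPM in Treg cultures, 1383, 1293 and 1396 in Th0 cultures and already 1229, 1230 and 1182 in naive cells. The culture and naive libraries did not overlap, but the log2 change was 0.20 in Treg cultures (SE 0.07, limma adjusted p = 0.027) and 0.16 in Th0 cultures, which did not pass (limma adjusted p = 0.070). The Treg call for Smc4 was lost without naive replicate 2 (adjusted p = 0.061), naive replicate 3 (0.079) or Treg replicate 2 (0.096), without the intensity trend (0.27) and with edgeR (0.25) and DESeq2 (0.26) on recovered reads, in a limma, edgeR and DESeq2 range of 0.00068 to 0.27. Its partner ATPase Smc2 had a log2 change of 3.17 in Treg cultures and the condensin subunits Ncapd2 and Ncaph 3.59 and 3.63.

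**Figure D3:**
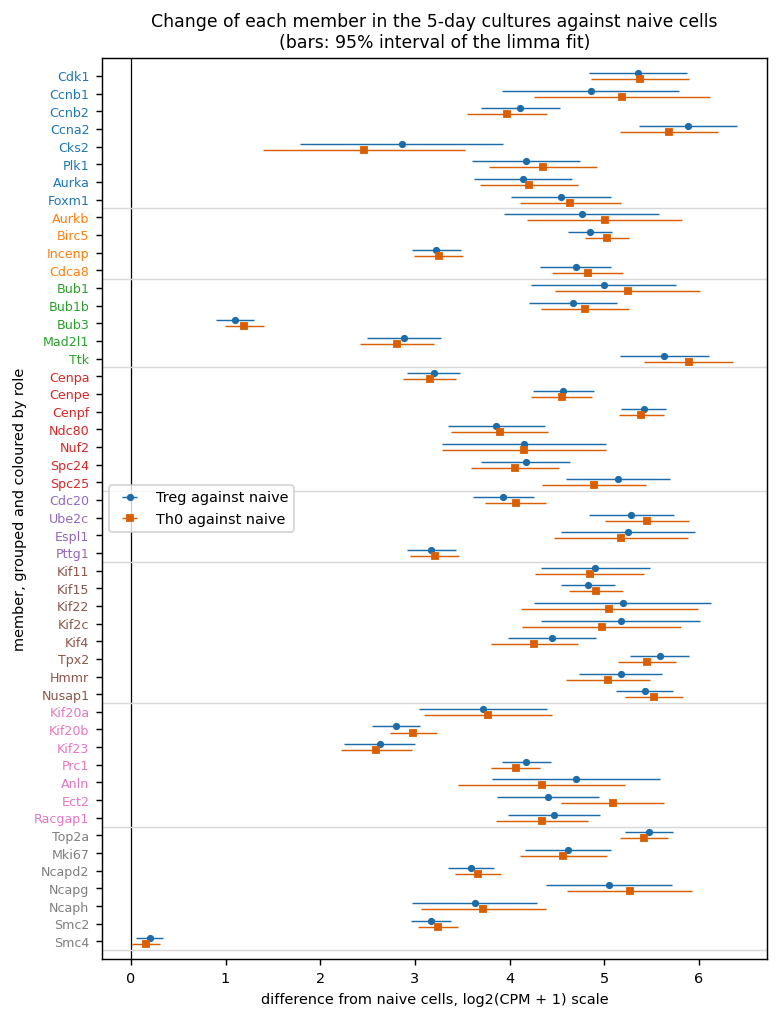
Log2 change of each of the 50 genes in Treg cultures (circles) and in Th0 cultures (squares) against naive cells, with the 95% interval of the limma fit; genes are grouped and coloured by role. Smc4 lies next to 0 and Bub3 near 1, while the other 48 genes lie above 2.

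The 139 genes listed for comparison moved less uniformly in Treg cultures against naive cells, with 101 higher and 7 lower of 138 tested and a median log2 change of 1.66, where 23.3% of all genes rose and 16.5% fell. Of 30 other kinetochore genes 28 rose and 0 fell, among them Knl1, the scaffold for Bub proteins (195, 181 and 241 CPM in Treg cultures and 7.52, 1.24 and 4.68 in naive cells, log2 change 5.43). Among 20 centrosome genes 16 rose and 0 fell, led by Cep55 (6.13) and Ckap2l (5.26). A list of 19 genes held other kinesin and cytokinesis genes and the condensin subunits Ncapd3, Ncapg2 and Ncaph2. Of these 19, 16 rose, led by Troap (5.59), and 1, Kif13b, fell (-1.44). Of 20 genes for entry kinases, phosphatases and proteins listed with them, such as cyclins, 15 rose and 0 fell. Pbk (5.41) and the cyclin gene Ccnf (4.57) were highest. Smaller shares rose in the lists that follow. Of 17 genes of the anaphase-promoting complex and its regulators 7 rose, led by the inhibitor Fbxo5 (3.39) and the activator Fzr1 (1.79), and 1, Ube2s, fell (-0.98). Of 15 cohesin genes 8 rose, led by Sgo1 (5.30) and Esco2 (5.12), which act on sister chromatids, and 3 fell, among them the loader Nipbl (-0.83) and Esco1 (-0.67). Of 12 genes of the DREAM and MuvB complexes 8 rose, with Mybl2 (3.39), which encodes B-Myb, and Tfdp1 (2.86) highest. Of 6 inhibitors of cyclin-dependent kinases tested, 4 rose, led by Cdkn1a (p21, 4.56) and Cdkn2c (3.08), and both Cdkn1c (-2.29) and Cdkn1b (p27, -0.48) fell, each by the same limma test.

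Between Treg and Th0 cultures, which differ in their labels by TGF-beta alone, the mitotic genes were close to each other. Of the 50 genes 0 passed the limma test in either direction, where 5.44% of all 14165 genes did (2.99% higher and 2.45% lower). The median log2 difference was -0.03, with 23 genes above 0 and 27 below, where 48.3% of all genes were above 0. At an unadjusted p under 0.05 the test gave 1 of the 50 genes, Ect2, and 15.7% of all genes. The 95% interval of the difference lay within 1 log2 unit of 0 for 42 genes and within 0.5 for 19, so differences of 2-fold were outside the interval for 42 of the 50. For Top2a the difference was 0.05 with an interval from -0.20 to 0.30. For Cks2 and Ccnb1 the intervals ran from -0.67 to 1.47 and from -1.26 to 0.61. The spread behind all these intervals was pooled over Treg, Th0 and naive libraries, so it is not that of the cultures alone. Ccnb1 had 74.4 to 127 CPM in the Treg and Th0 libraries but 0, 4.96 and 4.68 in naive cells.

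The 3 genes with the lowest p in that comparison were Ect2, Birc5 and Kif20b. Ect2, the exchange factor that activates RhoA at the cell equator (ENSMUSG00000027699, chromosome 3, 27097222 to 27154253), had 49.5, 50.3 and 61.7 CPM in Treg cultures and 85.8, 86.6 and 87.0 in Th0 cultures. All 3 Treg libraries were below all 3 Th0 libraries, and the log2 difference was -0.68 (SE 0.26, unadjusted p = 0.016, limma adjusted p = 0.17). In the same fit the 3 naive libraries, with 2.51, 1.24 and 1.17 CPM of Ect2, add their spread on the log scale. Fitted to the Treg and Th0 libraries alone, an alternative chosen after the values were seen, the limma adjusted p of Ect2 was 0.025, with edgeR on recovered reads it was 0.0029 and with DESeq2 0.076, in a range over the alternatives of 0.0029 to 0.40. A RefSeq gene, 1700125G22Rik, overlaps Ect2, and reads of the pair may not be told apart. Birc5, with the libraries given above, was also lower in each Treg library than in each Th0 library (-0.18, SE 0.11, limma adjusted p = 0.49). Kif20b, a kinesin of the midbody, had 241, 261 and 246 CPM in Treg cultures and 297, 296 and 257 in Th0 cultures, whose ranges overlapped (-0.18, SE 0.12, limma adjusted p = 0.53).

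In 4 of the 50 genes (Spc25, Tpx2, Prc1 and Anln) all Treg libraries were above all Th0 libraries, where 10.0% of all genes were. In 7 (Aurkb, Birc5, Cdca8, Bub1, Ttk, Cdc20 and Ect2) all were below, where 11.2% of all genes were. Both counts lie near those background shares. The count of 4 became 7 without Treg replicate 1 and 9 without Th0 replicate 1, where 14.5% of all genes lay wholly above in each case. The count of 7 became 12 without Treg replicate 2 or without Th0 replicate 3, where 16.2% and 16.9% of all genes lay wholly below. Quantile scaling made the count of 7 a count of 3, and the share of all genes at that scaling is not given here. Of the genes listed for comparison, 1 of 138 passed in Treg against Th0 cultures: Haspin, the kinase that marks histone H3 for the passenger complex, was higher, with 68.9, 64.5 and 94.0 CPM in Treg cultures and 41.3, 39.9 and 41.6 in Th0 cultures (log2 difference 0.85, limma adjusted p = 0.018).

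**Figure D4:**
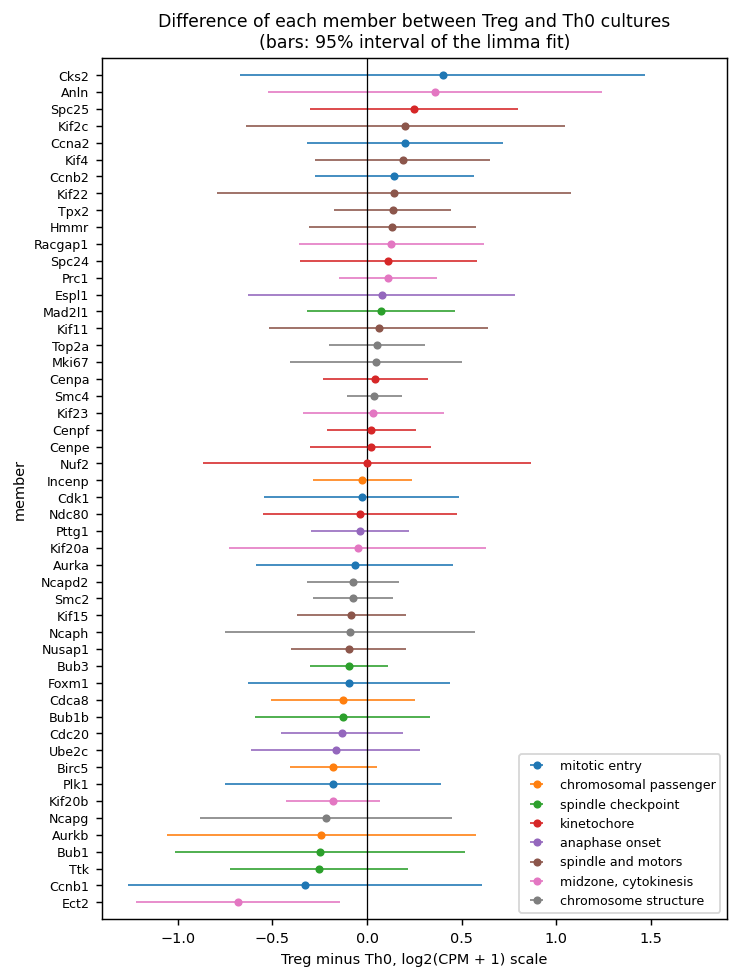
Log2 difference of each of the 50 genes between Treg and Th0 cultures, sorted, with the 95% interval of the limma fit and coloured by role. All intervals but that of Ect2, at the bottom, cross 0.

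In the guide cultures 0 of 18347 genes passed the limma test against control in any group, so the values of the mitotic genes are descriptions. With a pseudocount of 0.1 the genome-wide counts were 185 in sgSmad2, 178 in sgSmad3 and 178 in sgSmad2/3, and 0 of the 50 mitotic genes passed there too. At an unadjusted p under 0.05 the whole-table fit gave 1006 genes for sgSmad2, 1842 for sgSmad3 and 1795 for sgSmad2/3, and of the 50 mitotic genes 0, 11 and 12, where the shares of all genes were 5.48%, 10.04% and 9.78%. Summed over the 50 genes, the level was 14518 and 12642 CPM in sgSmad2, 15182 and 15598 in sgSmad3, 15103 and 15141 in sgSmad2/3 and 14022 and 12924 in control cultures. The sgSmad3 and sgSmad2/3 libraries were thus all above both control libraries, while sgSmad2 spanned them. The 3 comparisons share the control libraries and are given side by side.

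Median log2 differences of the 50 genes were 0.01 in sgSmad2, 0.19 in sgSmad3 and 0.22 in sgSmad2/3 cultures against control, where the median of all genes was 0 in each. Estimates above 0 numbered 27 in sgSmad2, 39 in sgSmad3 and 41 in sgSmad2/3, where 46.8%, 47.7% and 47.4% of all genes had them. Both libraries exceeded both control libraries for 6 of the 50 genes in sgSmad2, where 10.3% of all genes did and 14.1% of genes at least as abundant as the lowest of the 50. In sgSmad3 this held for 27 of the 50, against 15.3% of all genes and 23.9% of those as abundant. In sgSmad2/3 it held for 31, against 16.1% of all genes and 26.9% of those as abundant. Genes called as abundant are the 7550 with a mean of at least 14.1 CPM. That floor is the mean of the lowest of the 50, so the set is not matched to the levels of the others. Both libraries lay below both controls for 1 gene (Incenp) in sgSmad2, 1 (Hmmr) in sgSmad3 and 0 in sgSmad2/3, against 8.70%, 12.9% and 13.7% of all genes. With fewer libraries groups overlap less often, so the same counts were taken over all genes. Without sgSmad2 replicate 1, 15 of the 50 genes lay above control and 19 below in sgSmad2 (27.3% and 21.1% of all genes), and without sgSmad2 replicate 2, 23 and 7 (26.0% and 22.4%). Without control replicate 1 the sgSmad2 counts were 16 and 8 (22.3% and 21.6% of all genes), and without control replicate 2, 13 and 9 (21.5% and 22.5%). In sgSmad3 the count below control was 3 and 8 without sgSmad3 replicates 1 and 2 (23.1% and 23.6% of all genes), and 2 and 10 without control replicates 1 and 2 (24.8% and 29.3%). In sgSmad2/3 it was 1 without sgSmad2/3 replicate 1 (21.3% of all genes), 2 without control replicate 1 (25.6%) and 9 without control replicate 2 (30.8%).

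Plk1, the Polo-like kinase that drives entry into and passage through mitosis (ENSMUSG00000030867, chromosome 7, 122159435 to 122169884), had the highest estimate in sgSmad3. It had 214 and 218 CPM in sgSmad2, 296 and 322 in sgSmad3, 290 and 270 in sgSmad2/3 and 165 and 203 in control cultures. The libraries of all 3 guide groups lay above both control libraries, sgSmad3 farthest. Its log2 difference was 0.75 in sgSmad3 (SE 0.12, limma adjusted p = 0.13, 0.089 to 0.36 over the alternatives), 0.61 in sgSmad2/3 (limma adjusted p = 0.19, 0.16 to 0.69) and 0.24 in sgSmad2 (limma adjusted p = 0.93). Bub1b, which encodes the checkpoint protein BubR1, had 95 and 138 CPM in sgSmad2, 165 and 159 in sgSmad3, 157 and 140 in sgSmad2/3 and 93 and 105 in control cultures (log2 difference 0.71 in sgSmad3, limma adjusted p = 0.38). Tpx2 had 269 and 292 CPM in sgSmad2, 320 and 319 in sgSmad3, 318 and 303 in sgSmad2/3 and 258 and 250 in control cultures (0.33 in sgSmad3, limma adjusted p = 0.33). Again the sgSmad3 and sgSmad2/3 libraries did not overlap with control.

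For sgSmad2/3 the lowest p after Plk1 were those of Ncaph and Ccnb1. Ncaph, the kleisin subunit of condensin, had 47 and 45 CPM in sgSmad2, 52 and 56 in sgSmad3, 63 and 70 in sgSmad2/3 and 38 and 47 in control cultures (log2 difference 0.64 in sgSmad2/3, SE 0.14, limma adjusted p = 0.23). Ccnb1 had 114 and 117 CPM in sgSmad2, 110 and 154 in sgSmad3, 159 and 170 in sgSmad2/3 and 113 and 96 in control cultures (0.65 in sgSmad2/3, SE 0.18, limma adjusted p = 0.36). For both genes the sgSmad2/3 libraries were above all other libraries. For sgSmad2 the lowest p were those of Ccna2 (0.31, limma adjusted p = 0.93), Ube2c (0.24) and Foxm1 (0.28). Ccna2 had 175 and 160 CPM in sgSmad2, 166 and 203 in sgSmad3, 174 and 178 in sgSmad2/3 and 125 and 146 in control cultures.

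By role, the median log2 difference in sgSmad3 was highest for the genes of anaphase onset (0.47). It was near 0 for kinetochore genes (0.07) and for midzone and cytokinesis genes (0.04). Both libraries lay above both controls for 4 of 4, 2 of 7 and 1 of 7 of these genes. Of all genes 15.3% did so, and of those as abundant 23.9%. The counts for kinetochore and midzone genes lie near those shares. In sgSmad2/3 the median was highest for mitotic entry (0.40, 6 of 8) and lowest for kinetochore genes (-0.03, 2 of 7). All 4 passenger genes were above control in both libraries. Of all genes 16.1% were, and of those as abundant 26.9%, which the kinetochore count is near. In sgSmad3, 39 of the 50 estimates were above 0 and 11 below, among the latter Mki67 (-0.17), Cenpf (-0.16) and Ndc80 (-0.18). Hmmr, a spindle protein that also binds hyaluronan, was lowest (-0.45 in sgSmad3, limma adjusted p = 0.58). It had 202 and 131 CPM in sgSmad2, 127 and 124 in sgSmad3, 159 and 143 in sgSmad2/3 and 188 and 157 in control cultures. Differences between roles were not tested.

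Replicates 1 and 2 differed within control and within sgSmad2 in a way that they shared. Smc4 had 1804 and 1180 CPM in sgSmad2 and 1730 and 1229 in control cultures, while sgSmad3 cultures had 1361 and 1326 and sgSmad2/3 cultures 1342 and 1409. Cenpe, Mki67, Smc2 and Kif20b were likewise higher in replicate 1 than in replicate 2 of both groups, and Ncapd2 was lower, with 211 and 350 CPM in sgSmad2 and 256 and 361 in control cultures. For Ncapd2 the replicates lay closer together in sgSmad3, with 479 and 469 CPM, and in sgSmad2/3, with 408 and 392 CPM. Without control replicate 1 the count of genes with all libraries above control was 37 in sgSmad3 and 43 in sgSmad2/3, where 25.2% and 26.3% of all genes and 36.4% and 39.8% of those as abundant did so. Without control replicate 2 it was 30 and 36, where the shares were 25.8% and 27.1% of all genes and 39.0% and 43.1% of those as abundant.

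Sums of cell type markers also differed between these groups. The 7 CD4 T cell markers summed to 1979 to 2579 CPM in sgSmad2, 2655 to 2869 in sgSmad3, 2668 to 2726 in sgSmad2/3 and 2141 to 2414 in control cultures. Summed over 8 myeloid markers, levels were 3 to 8 CPM in sgSmad2, 8 to 54 in sgSmad3, 20 to 71 in sgSmad2/3 and 0 to 3 in control cultures, with Itgam and Cd14 at 0 in all 8 libraries. The 4 globins summed to 24 to 25 CPM in sgSmad2, 32 to 87 in sgSmad3, 70 to 144 in sgSmad2/3 and 13 to 19 in control cultures. For these 3 sets the sgSmad3 and sgSmad2/3 libraries lay above both control libraries. Other listed markers did not. Tfrc had 545 and 428 CPM in sgSmad3, 467 and 419 in sgSmad2/3 and 446 and 380 in control cultures. CD8, NK and gamma-delta markers summed to 32 to 41 CPM in sgSmad3, 28 to 34 in sgSmad2/3 and 35 in control cultures. Without Ighm, the 6 B cell markers summed to 4 to 6, 2 to 4 and 1 to 5 CPM in the same order. Ighm alone had 86 and 70 CPM in sgSmad3, 86 and 60 in sgSmad2/3 and 94 and 90 in control cultures. The part of all these markers in the result was not tested. Smad2 itself had 12 and 24 CPM in sgSmad2, 25 and 30 in sgSmad3, 13 and 18 in sgSmad2/3 and 37 and 29 in control cultures. Smad3 had 44 and 56 CPM in sgSmad2, 26 and 25 in sgSmad3, 41 and 37 in sgSmad2/3 and 30 and 34 in control cultures. No guide position is given in the sources used here, and 3' tags need not report a cut in the coding sequence, so these levels do not check the labels.

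**Figure D5:**
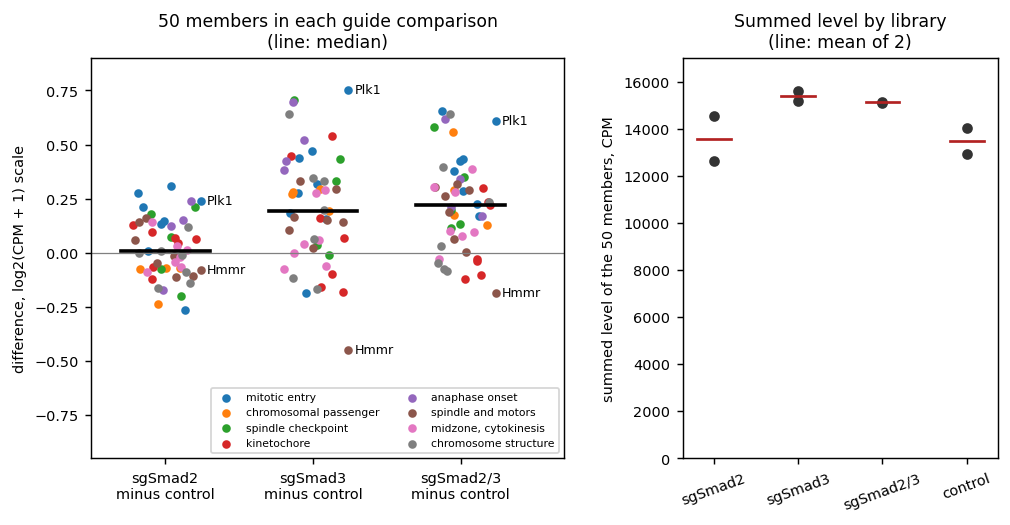
Left, log2 difference of each of the 50 genes in sgSmad2, sgSmad3 and sgSmad2/3 cultures against control, with the median as a line and colours by role; right, the summed CPM of the 50 genes in each library with the mean of 2 as a line. Points of sgSmad3 and sgSmad2/3 lie mostly above 0, with Plk1 near the top and Hmmr lowest, and no gene passed the adjusted test.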

How the data were processed

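Gene-level 3' tag RNA-seq tables of 17 libraries were used; the Acsbg1 and ATAC-seq libraries of the 29 samples were not analysed here. The deposited cell-type values, named TPM by the authors, are CPM: 100.0% of nonzero values were whole multiples of 1 read (tolerance 0.01), so reads were recovered. The deposited Smad values are CPM that the authors rounded to whole numbers and are treated as a score. Per the submitters' processing notes, the tools included STAR 2.7.9a, Subread 2.0.1, Bowtie2 and deepTools and the build mm10; for the annotation and for strand, the choice is not given in the sources used here. Library depths are in the report, and intervals on reads cover counting error only.

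Genes with at least 1 CPM in at least 3 cell-type libraries (14165 of 19464 detected) or 2 Smad libraries (18347 of 22643) were tested on log2(CPM + 1) with limma 3.58.1 (R 4.3.3) allowing the variance to follow the level; each table was 1 model with every group in it, and p-values were Benjamini-Hochberg adjusted across all its genes (threshold 0.05). The tables were fitted separately, since they were normalized separately. The design foresaw TPM; the same test was kept. Gene names matched 54409 of 54532 and 55154 of 55421 IDs, and 27 date-like symbols in each table were restored.

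Members and lists were chosen with earlier results of these data known. The genes named were the 2 largest and the smallest change against naive cells in each role, the 3 lowest p in each other comparison and members not called against naive cells; in the comparison lists, the 2 largest rises and up to 2 largest falls, of which 1 is not reported here. Others were named after their values were seen. Alternatives were another pseudocount, no filter, quantile scaling, no trend, a replicate block, each library left out, and edgeR 4.0.16 and DESeq2 1.42.0 on recovered reads. The fit to Treg and Th0 libraries alone and the alternatives for the counts of genes without overlap were chosen after seeing the data. The scripts were tested on simulated data, with 100 genes changed by 1 log2 unit and 100 by 2. In simulated Treg against Th0, 39% and 96% of them passed the threshold. In simulated sgSmad2 against control, 3% and 45% passed. A count of 0 in the guide groups therefore does not exclude changes of 2-fold.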

Additional observations from a re-analysis of the deposited data

How the results depend on the processing

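Against naive cells, 644 of 650 results for single genes in Treg and 649 of 650 in Th0 cultures kept their direction and side of the threshold; the 6 and 1 others all concern Smc4. Quantile scaling moved the median of all genes from 0.08 to -0.04 in Treg and to -0.03 in Th0 cultures, and the share of calls that were higher from 58.5% to 49.1% and from 58.0% to 48.7%, with all 50 mitotic genes still above 0 (medians 4.48 and 4.43). Treg against Th0 cultures gave 770 genes, 1066 with edgeR, 582 with DESeq2, 706 with quantile scaling, 453 without the trend, 585 in Treg and Th0 libraries alone and 503 to 642 with a library left out, lowest without Treg replicate 2. Of the mitotic genes, 1 (Ect2) was lower in Treg cultures with edgeR and 1 with Treg and Th0 libraries alone.

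Against control, 0 genes passed in each guide group. With pseudocount 0.1 the counts were 185 in sgSmad2, 178 in sgSmad3 and 178 in sgSmad2/3, and without the trend 175, 158 and 164, with 0 mitotic genes in all; the cause was not tested. Counts of mitotic genes without overlap rose with a library left out, since fewer libraries overlap less often. In Treg against Th0 cultures they were 4 to 9 higher and 7 to 12 lower, against 13.6% to 14.9% and 14.7% to 16.9% of all genes. For sgSmad2 they were 13 to 23 higher and 7 to 19 lower, against 21.5% to 27.3% and 21.1% to 22.5%. For sgSmad3 they were 30 to 37 and 2 to 10, against 25.2% to 29.7% and 23.1% to 29.3%. For sgSmad2/3 they were 34 to 43 and 0 to 9, against 26.3% to 28.4% and 21.3% to 30.8%. Quantile scaling gave 3 lower in Treg against Th0 cultures, 3 in sgSmad2, 2 in sgSmad3 and 2 in sgSmad2/3. Shares of all genes at that scaling are not given here, so these counts have no background to be read against.

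Deviations of samples with the same replicate number correlated at -0.003 to 0.041 in the cell-type table, at 0.21 between control and sgSmad2 and at 0.0056 to 0.037 between the other Smad groups. The labels give no shared source for a number, so samples were not treated as pairs; control and sgSmad2 replicates did deviate together. With a replicate block 759 genes passed in Treg against Th0, 5630 in Treg against naive and 5897 in Th0 against naive, 0 in each guide group, and 0, 50 and 49 mitotic genes. Depth limits genes near 3 reads in naive libraries, where 1 to 3 reads leave wide intervals, and whole-number rounding limits low genes in the guide cultures.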
